A study of Danio rerio with 46 samples.

Results

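Chemokines, interleukins and tumour necrosis factor (TNF) family members are the secreted messengers, and the receptors for them, by which cells of the immune system and their neighbours signal to each other. The genes described here are the 93 rows, of 31475 in the expression table, whose symbol begins with cxcl, cxcr, ccl, ccr or il and a digit, or tnf. They comprise 11 chemokine ligands, 14 chemokine receptors, 19 interleukins, 22 interleukin receptors, 11 TNF ligands, 7 TNF receptors and 9 TNF-induced proteins. These roles follow the gene names. The TNF-induced proteins are the rows named tnfaip, and their induction by TNF was not tested. Of the 93 symbols, 76 are current RefSeq symbols, 11 are older names and 6 did not match the RefSeq gene table. The older names include ccl1 (now ccl27a), ccl20 (ccl20b), cxcl-c13d (cxcl8b.3), cxcl-c1c (cxcl18b), cxcl-c5c (cxcl20), il17ra (il17ra1a), il4r (il4r.1) and tnfaip8 (tnfaip8l1).

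Chemokines bind to receptors with a membrane-spanning bundle of helices and set the direction in which leukocytes, and in embryos many other cells, migrate. In the zebrafish embryo, Cxcl12a and its receptor Cxcr4b guide the primordial germ cells to the place where the gonad forms. Interleukins act through receptor chains that signal mainly by JAK and STAT proteins or, in the interleukin 1 and 17 branches, by adaptors that lead to the transcription factor NF-kB. TNF ligands bind receptors that recruit TRAF proteins, and lead to NF-kB or to cell death. Macrophages, and other leukocytes, are normal residents of the vertebrate testis and ovary.

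Zebrafish were kept at 36 °C (heat) or 28 °C (control) from 18 to 32 days post fertilization (dpf), and all of them were then reared at 28 °C. Arrays were made from heat-exposed trunks (n = 10) and control trunks (n = 8) of juveniles of unknown sex at 37 dpf, from heat-exposed testes (n = 10) and control testes (n = 10) at 90 dpf, and from heat-exposed ovaries (n = 4) and control ovaries (n = 4) at 90 dpf. Each of the 46 arrays is labelled as a separate biological replicate, and the strain is not given in the sources used here. Values are log2 signals, differences are log2 differences of group means with their standard error (SE), and a gene is called where limma's moderated test gave a Benjamini-Hochberg adjusted p under 0.05 over all 31475 rows.

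The samples hold mixed tissue, so fewer cells of a type and less RNA per cell cannot be told apart. The summed level of each marker list is given here as the mean log2 signal of its genes. The 14 oocyte markers lay between 6.43 and 8.98 in heat-exposed trunks, against 8.83 to 13.51 in control trunks, where control trunks 2 and 4 were lowest, at 8.83 each. Among 10 pan-leukocyte markers the range was 11.27 to 12.07 in heat-exposed trunks and 11.04 to 12.04 in control trunks, and control trunk 2 had the highest value of its group. Heat-exposed ovaries 2 and 4 went against their label: their 14 testis germ cell markers lay at 12.30 each, within the 12.28 to 12.62 of control testes, while heat-exposed ovaries 1 and 3 had 8.79 and 8.81 and control ovaries 8.33 to 8.92. Oocyte markers were high in all 4 heat-exposed ovaries (13.74, 12.41, 13.78 and 12.77), against 13.53 to 13.95 in control ovaries. The 12 trunk muscle markers reached 8.27 to 11.44 in heat-exposed testes and 8.62 to 11.41 in control testes, against 7.38 to 8.39 in heat-exposed ovaries and 7.49 to 7.96 in control ovaries.

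**Figure D1:**
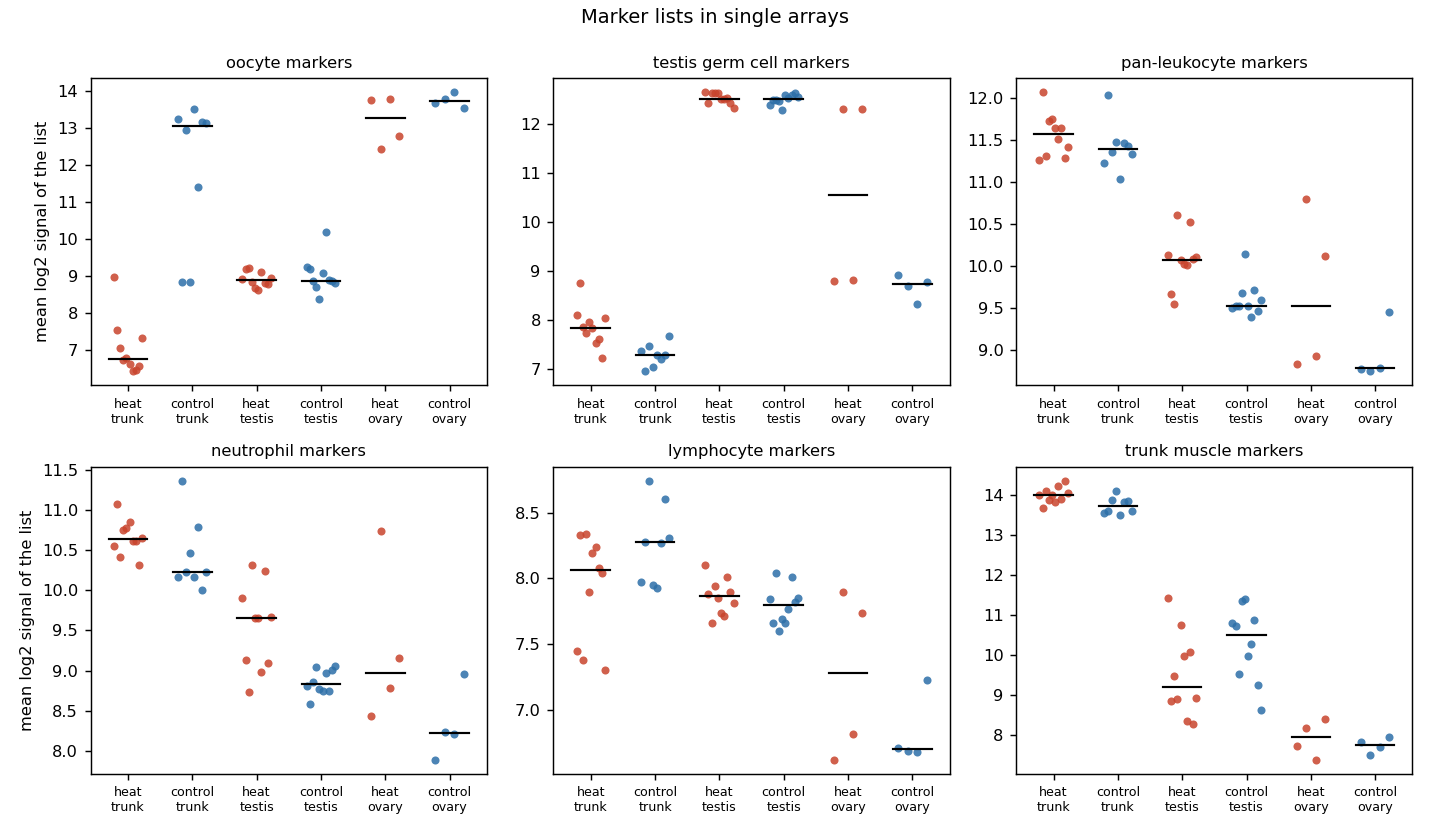
Mean log2 signal of 6 marker lists (vertical axes) in each of the 46 arrays, by group (horizontal axes); points are arrays, red for heat and blue for control, and lines are group medians. Oocyte markers separate most control trunks from the heat-exposed trunks, and 2 heat-exposed ovaries lie at the testis level for testis germ cell markers.

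Many members gave weak signal. The number whose group mean lay in the lowest 25% of all rows was 22 in heat-exposed trunks and 28 in control trunks, 37 in heat-exposed testes and 39 in control testes, and 34 in heat-exposed ovaries and 41 in control ovaries. In all 6 groups, 12 members lay in that range and 35 lay above it. Only il13ra1, a receptor chain for interleukins 4 and 13, and tnfaip1, an adaptor of ubiquitin ligases, had a group mean above the 75th percentile of rows in every group. Brightness depends on the probes, so these positions describe detectability and do not rank one gene's abundance against another's.

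The inflammatory messengers il1b and tnfa were dim in every group. For il1b, the prototype inflammasome product, the group means were 5.94 in heat-exposed trunks, 5.89 in control trunks, 6.29 in heat-exposed testes, 6.27 in control testes, 5.78 in heat-exposed ovaries and 5.46 in control ovaries. For tnfa, a main product of activated macrophages, they were 6.0 and 5.91 in heat-exposed and control trunks, 5.46 and 5.09 in the heat-exposed and control testes, and 5.78 and 5.53 in the heat-exposed and control ovaries. All of these means lie in the lowest 25% of rows of their group. Others of this kind were brighter in trunks, such as il8, with means of 10.50 in heat-exposed and 9.70 in control trunks, and tnfb, with 9.48 and 8.48.

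Some members held very different positions in trunk and gonad, which is described without a test because the ages were not compared. The chemokine ccl25b, whose mammalian counterpart draws T-cell precursors to the thymus and lymphocytes to the gut, averaged 13.79 ± 0.17 in heat-exposed trunks and 13.50 ± 0.25 in control trunks (SD, n = 10 and 8), at percentiles 96.8 and 95.6 of all rows. It averaged 8.49 in heat-exposed testes, 8.20 in control testes, 6.83 in heat-exposed ovaries and 5.80 in control ovaries. Its receptor gene ccr9a had 11.95 in heat-exposed trunks and 12.43 in control trunks, and stayed between 5.71 and 6.27 in the 4 gonad groups. For il15, which maintains natural killer and memory T cells in mammals, the trunk means were 10.56 (heat) and 10.60 (control), and the gonad means lay between 5.39 and 5.91. The opposite arrangement was seen for il17d, a divergent interleukin 17 family member, with 7.54 and 7.58 in heat-exposed and control trunks and 10.57 to 11.14 in the gonad groups.

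The first comparison asked which members differed in juvenile trunks 5 days after the heat had ended. No array was made during the heat. In heat-exposed trunks, 12 ligands and receptors were higher than in control trunks, namely the chemokines ccl20, cxcl-c13d, cxcl14 and cxcl12a, the interleukins il13, il34, il22 and il11b, and the TNF family genes tnfb, tnfsf10, tnfrsf18 and tnfrsf19. One gene, the chemokine receptor ccr7, was lower. These 13 calls are 14.0% of the 93 members, a share near the 14.5% of all rows that were called. Calls in the higher direction covered 8.59% of all rows and calls in the lower direction 5.96%. The median difference was 0.13 over the members, and 58 of 93 were positive, against a median of 0.04 over all rows.

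**Figure D2:**
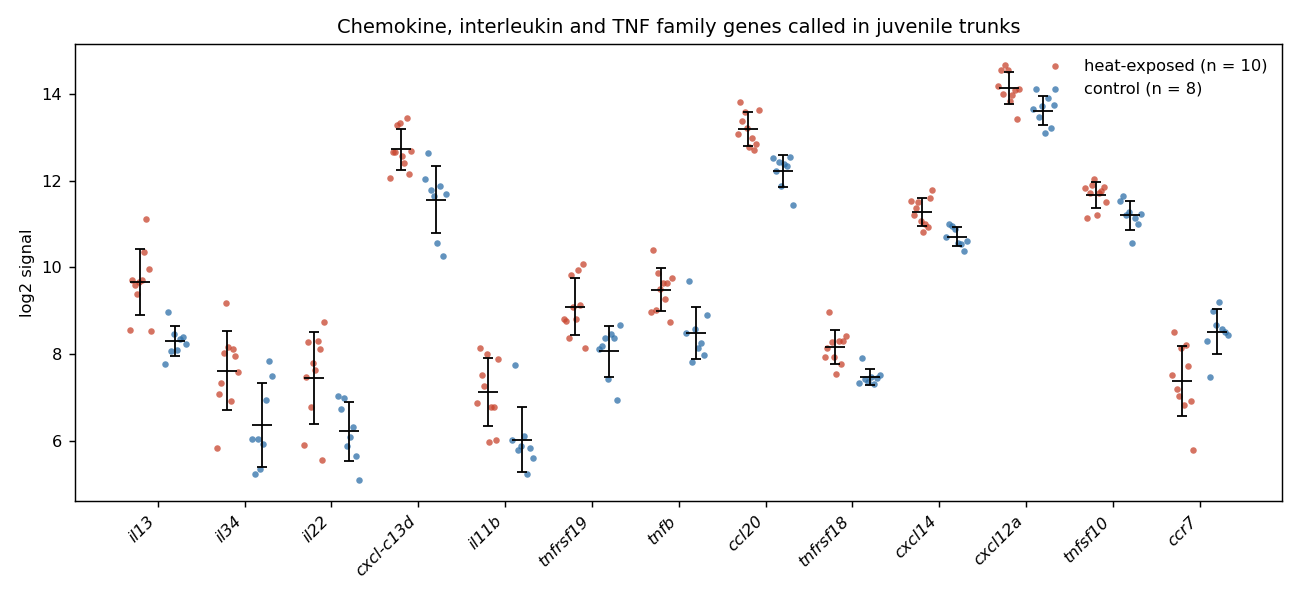
Log2 signal (vertical axis) of the 13 members called in juvenile trunks (horizontal axis), with a point for each array, heat-exposed trunks (red, n = 10) left of control trunks (blue, n = 8), and bars showing mean and SD. The groups overlap for every gene except ccl20, and ccr7 is the only one that is lower after heat.

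Of 11 chemokine ligands 4 were called, all higher, where 8.59% of all rows were called higher. The ligand ccl20, which in mammals attracts cells carrying CCR6, had a lowest, median and highest value of 12.70, 13.16 and 13.82 in heat-exposed trunks, against 11.45, 12.37 and 12.56 in control trunks. Every heat-exposed trunk lay above every control trunk, and how many of all rows separate the trunk groups as fully was not tested. The difference was 0.98 ± 0.18 (SE; 1.97-fold; limma adjusted p = 0.00173). The ligand cxcl-c13d belongs to the interleukin 8 group of neutrophil attractants, and had 12.07, 12.67 and 13.44 in heat-exposed trunks, against 10.27, 11.73 and 12.64 in control trunks. Only control trunk 2, at 12.64, reached the heat range, and the difference was 1.16 ± 0.28 (limma adjusted p = 0.0105).

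The ligand cxcl14, an epithelial chemokine, had 10.82, 11.29 and 11.79 in heat-exposed trunks, against 10.39, 10.66 and 11.01 in control trunks, a difference of 0.58 ± 0.14 (limma adjusted p = 0.0114). Its control trunks 2, 3 and 4 reached into the heat range, at 11.01, 10.95 and 10.89. The germ cell guidance cue cxcl12a had 13.43, 14.11 and 14.68 in heat-exposed trunks, against 13.11, 13.69 and 14.12 in control trunks (0.52 ± 0.17, limma adjusted p = 0.0455). Most of its control values fell inside the heat range. Another 4 ligands had an unadjusted p under 0.05 without being called: ccl25b (0.29), cxcl12b (0.42), cxcl-c1c (0.63) and il8 (0.81), with adjusted p between 0.0961 and 0.127. The other ligands, cxcl-c5c, ccl1 and cxcl11, had differences of 0.38, -0.02 and -0.32.

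Among the 14 chemokine receptors only ccr7 was called. In mammals CCR7 leads dendritic cells and lymphocytes into lymphoid tissue. It had 5.79, 7.36 and 8.50 in heat-exposed trunks, against 7.48, 8.54 and 9.20 in control trunks. Control trunk 2, at 7.48, was the only control below 8.29. It fell by 1.13 ± 0.31 on the log2 scale (limma adjusted p = 0.0207). Beside it, 3 of 17 lymphocyte markers were called lower, where 5.96% of all rows were. They were the immunoglobulin heavy chain genes ighm (-0.85) and ighz (-1.40) and the B-cell regulator pax5 (-1.22), while the B-cell gene cd79b was not called. Only 3 of the 17 differences were positive, with a median of -0.24 over the list. One lymphocyte marker was called higher, the transcription factor gata3 (1.48), which is also expressed outside lymphocytes. Summed lymphocyte markers ranged from 7.30 to 8.34 in heat-exposed trunks and from 7.93 to 8.74 in control trunks, and their part in the ccr7 difference was not tested.

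The measured receptors for Cxcl12 and Ccl20 were not called. For cxcr4b the mean was 13.24 ± 0.28 in heat-exposed trunks and 13.25 ± 0.38 in control trunks (SD; difference 0.00 ± 0.16 SE), and for cxcr4a it was 10.59 and 10.33 (0.26 ± 0.15). The gene ccr6a, a counterpart of the mammalian receptor for CCL20, had a difference of -0.95 ± 0.42 with an adjusted p of 0.143 by limma. The receptors ccr12.2 and ccr12.3 averaged 9.77 and 8.32 in heat-exposed trunks, against 9.03 and 7.53 in control trunks, and neither was called. The remaining receptors, which are cxcr3.1, cxcr3.2, cxcr7b, ccr6b, ccr8.1, ccr9a, ccr9b and ccr10, had differences between -0.48 and 0.38.

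Interleukins had 4 calls of 19, all higher, where 8.59% of all rows were called higher. The type 2 cytokine il13 had 8.53, 9.68 and 11.11 in heat-exposed trunks, against 7.77, 8.29 and 8.96 in control trunks. Heat-exposed trunks 1 and 10, at 8.56 and 8.53, were the only ones inside the control range. Its difference of 1.37 ± 0.28 (2.58-fold; limma adjusted p = 0.00335) was the largest among the 13 called members. The gene il34 encodes a second ligand of the macrophage receptor Csf1r, and had 5.83, 7.78 and 9.19 in heat-exposed trunks, against 5.24, 6.03 and 7.84 in control trunks (1.26 ± 0.41, limma adjusted p = 0.0465).

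For il22, which acts on epithelia, the values were 5.55, 7.71 and 8.75 in heat-exposed trunks, against 5.09, 6.20 and 7.03 in control trunks (1.24 ± 0.40, limma adjusted p = 0.0463). For il11b, a relative of interleukin 6, they were 5.96, 7.07 and 8.13 in heat-exposed trunks, against 5.22, 5.86 and 7.75 in control trunks (1.1 ± 0.34, limma adjusted p = 0.0371). Control trunk 2 held that 7.75, and the next control was at 6.10. The means of il22, il11b and il34 were in the lowest 25% of rows in control trunks. The other 15 interleukins, among them il10 (-0.11), il15 (-0.05), il16 (0.58), il12a (-0.21) and il21 (0.60), were not called and lay between -0.35 and 0.60.

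None of the 22 interleukin receptors was called in trunks, and 5 had an unadjusted p under 0.05, as had 9089 of all 31475 rows. Those 5 were il17ra (0.41), il4r (0.56), il21rl (0.54), il12rb2l (-0.30) and il13ra2 (-0.66), with adjusted p between 0.0817 and 0.169. The decoy receptor gene il13ra2 and the signalling chain il13ra1 (12.16 in heat-exposed and 11.92 in control trunks) therefore carried no call beside that of their ligand il13. The shared chains il6st, for the interleukin 6 family, and il2rga had differences of 0.11 and -0.10, and il17rd, a receptor-like brake on fibroblast growth factor signalling, had 0.27.

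In the TNF family 4 of 27 members were called, a share near the 14.5% of all rows. The ligand tnfb, a second zebrafish TNF gene, had 8.74, 9.57 and 10.40 in heat-exposed trunks, against 7.81, 8.37 and 9.69 in control trunks. Control trunk 2 was again the highest control, and the others did not exceed 8.90. The difference was 1.0 ± 0.25 (limma adjusted p = 0.0114). The death ligand tnfsf10, also called TRAIL, had 11.13, 11.75 and 12.05 in heat-exposed trunks, against 10.57, 11.22 and 11.64 in control trunks (0.47 ± 0.15, limma adjusted p = 0.0421). The receptor tnfrsf19 had 8.13, 8.96 and 10.09 in heat-exposed trunks, against 6.93, 8.27 and 8.67 in control trunks (1.03 ± 0.28, limma adjusted p = 0.0209). The receptor tnfrsf18, known in mammals from regulatory T cells as GITR, had 7.54, 8.20 and 8.98 in heat-exposed trunks, against 7.31, 7.44 and 7.90 in control trunks (0.69 ± 0.16, limma adjusted p = 0.00687). Without control trunk 2, at 7.90, every heat-exposed trunk lay above every control trunk for tnfrsf18. The 9 TNF-induced proteins had no call, and tnfaip8 came nearest (-0.49, limma adjusted p = 0.0556). The NF-kB inhibitor gene tnfaip3, also called A20, had a difference of 0.09. The main TNF receptor gene tnfrsf1a averaged 10.98 in heat-exposed and 11.10 in control trunks.

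Of 60 genes of NF-kB and cytokine signalling 9 were called, 6 higher and 3 lower, a share of 15% and near the 14.5% of all rows. The higher ones were the inhibitor nfkbiaa (0.62), the cytokine signalling suppressors socs3a (0.69) and socs3b (0.82), fadd (0.60), which couples death receptors to caspases, tab1 (0.60) and ikbkg (0.33). The lower ones were stat1b (-1.62), stat2 (-1.38) and traf2a (-0.67). Of 37 cytokine and receptor genes with names outside the selection rule, 2 were higher, m17 (1.16), a relative of interleukin 6, and ngfrl (0.45), and none was lower. Their called share of 5.41% was below the 14.5% of all rows.

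The juvenile calls were set beside cell type markers, and the fit was repeated without single trunks. All 14 oocyte markers fell, with a median difference of -4.72, and with the mean oocyte marker level in the model 0 of the 93 members and 225 of all rows (0.715%) were called. In that model the differences of the 13 ranged from -0.57 ± 0.63 for ccr7 and 0.08 ± 0.51 for cxcl-c13d to 1.29 ± 0.37 for ccl20 and 1.77 ± 0.85 for il34, with adjusted p between 0.0938 and 0.963 by limma. Between these lay tnfsf10 at 0.11 ± 0.30, cxcl12a at 0.14 ± 0.34, tnfb at 0.19 ± 0.46, cxcl14 at 0.45 ± 0.29 and tnfrsf19 at 0.99 ± 0.59. The gene il13, with the largest difference of the 13 in the main model, was at 0.26 ± 0.49. The marker levels of the groups overlap only between 8.83 and 8.98, so heat and oocyte level can hardly be told apart in this model. The SEs of the 13 were larger than in the main model, and nothing is concluded from the loss of their calls.

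Control trunk 2 had the highest leukocyte, macrophage and NF-kB lists among control trunks. With control trunk 4 it also had the lowest oocyte markers of the controls, at 8.83 each, inside the range of heat-exposed trunks (6.43 to 8.98). Which of these traits goes with the change in calls was not tested. Leaving out control trunk 2 gave 20 calls, 19 higher and 1 lower. They kept 12 of the 13 (il34 was lost, at 1.1 and an adjusted p of 0.0874 by limma) and added 8: ccl25b (0.36), cxcl-c1c (0.82), cxcl-c5c (0.55), il8 (1.04), ccr12.2 (1.1), ccr12.3 (0.99), il4r (0.74) and tnfrsf9a (0.55). Chemokine ligands then had 8 of 11 called, and 14.0% of all rows were called in that model. Control trunk 2 was the highest control for each of the 8 added members, so leaving it out raises their differences by itself. Of the single trunks left out, it gave the most calls (range 8 to 20). Each of ccl20, cxcl-c13d, cxcl14, il13, tnfb, tnfrsf18, tnfrsf19 and ccr7 was called whichever single trunk was left out, and cxcl12a, il11b, il22, il34 and tnfsf10 lost their call in most of these fits. Among pan-leukocyte markers 0 of 10 were called by limma, and 0 had an unadjusted p under 0.05. With their mean in the model 9 members were called, against 13.1% of all rows: 8 of the 13 and il12rb2l (-0.37), while cxcl12a, il11b, il22, il34 and tnfsf10 lost their call. Called higher were 1 of 10 macrophage markers (ctssb.2, 0.50) and 1 of 9 neutrophil markers (cebpb, 0.88), shares near the 8.59% of all rows. Of the 10 macrophage markers, 7 had an unadjusted p under 0.05 by limma and 8 were positive, with a median difference of 0.43. Of the 9 neutrophil markers, 2 had an unadjusted p under 0.05 and 7 were positive, with a median of 0.19. Of all 31475 rows, 9089 had an unadjusted p under 0.05 by limma. The part of these markers in the members' differences was not tested.

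**Figure D3:**
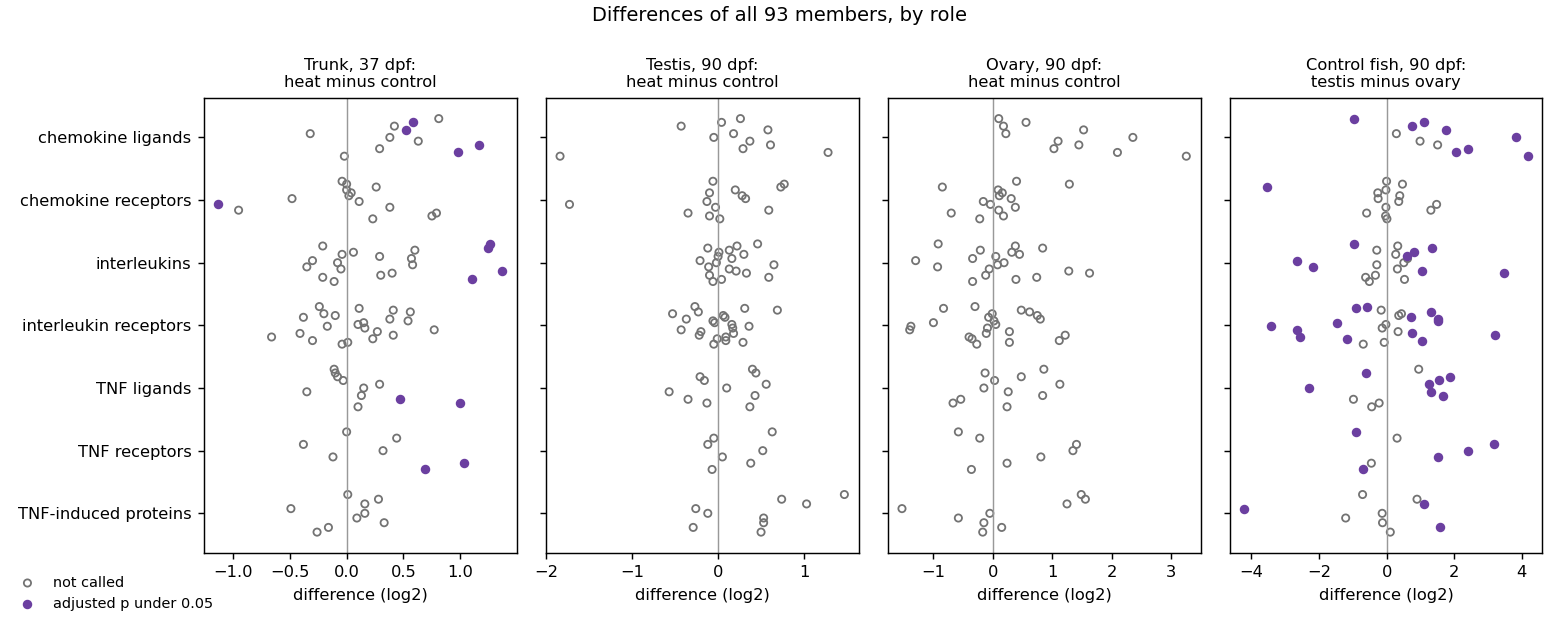
Difference in mean log2 signal (horizontal axes) of each of the 93 members, grouped by role (vertical axis), in the 3 heat comparisons and in control testis against control ovary; filled points have an adjusted p under 0.05. Calls appear in juvenile trunks, mostly to the right of 0, and in both directions between testis and ovary, and there are none in either adult heat comparison.

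The adult testes of heat-exposed and control fish were compared at 90 dpf. No member was called between heat-exposed and control testes, where 0.0635% of all rows were called. By limma, 15 of 93 members and 3672 of all 31475 rows had an unadjusted p under 0.05. The median difference over the 93 members was 0.09. Heat-exposed and control testes overlapped for all 5 members with the smallest p. The nearest was tnfaip8l2a, a TIPE2-like gene known in mammals as a brake on innate immune signalling. It had 8.14, 9.41 and 10.36 in heat-exposed testes, against 7.98, 8.3 and 8.86 in control testes. Heat-exposed testis 2, at 8.14, lay inside the control range and the other 9 lay above all controls, and the difference was 1.03 ± 0.22 (limma adjusted p = 0.07).

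The interleukin 6 receptor il6r had 5.59, 5.93 and 7.07 in heat-exposed testes, against 4.95, 5.35 and 6.0 in control testes (0.69 ± 0.17, limma adjusted p = 0.114), close to the bottom of the signal range. For tnfaip1 the values were 12.62, 13.08 and 13.48 in heat-exposed testes, against 12.24, 12.49 and 13.02 in control testes (0.50 ± 0.14, limma adjusted p = 0.153). The chemokine receptor cxcr4b had 10.94, 11.59 and 12.88 in heat-exposed testes, against 9.95, 11.07 and 12.05 in control testes (0.77 ± 0.28, limma adjusted p = 0.296). The TIPE3-like gene tnfaip8l3 varied most, from 6.06 to 10.48 in heat-exposed testes and from 5.53 to 8.92 in control testes (1.47 ± 0.54, limma adjusted p = 0.306).

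All 5 differences were positive. The TNF-induced proteins are grouped by name, TIPE-like genes included, and do not measure a response to TNF. The median of these proteins, 0.53, lay above those of the other roles, which ran from 0.00 to 0.26. Beside them, the 9 neutrophil markers averaged 8.74 to 10.31 in heat-exposed testes and 8.59 to 9.06 in control testes, and the 10 pan-leukocyte markers 9.55 to 10.61 in heat-exposed testes and 9.40 to 10.14 in control testes. An unadjusted p under 0.05 by limma was found for 5 of 9 and 6 of 10 of them, against 3672 of all 31475 rows. None of these markers was called, and their part in the members' differences was not tested. Of the ligands called in trunks, ccl20 had a difference of 1.28 ± 0.63 and cxcl12a of 0.58 ± 0.33 in testes, with adjusted p of 0.443 and 0.516 by limma. The other ligands called in trunks did not share 1 direction in testes. The means of tnfsf10, il22 and tnfb were lower in heat-exposed than in control testes, and those of cxcl-c13d, cxcl14, il13, il34 and il11b were higher.

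In ovaries no member was called, and of all rows 0% were. By limma, 9 of 93 members and 3334 of all 31475 rows had an unadjusted p under 0.05. The 11 chemokine ligands had positive differences throughout, with a median of 1.1, against 0.15 over all members and -0.06 over all rows. For cxcl12a the heat-exposed ovaries had 9.30, 14.04, 9.58 and 12 (ovaries 1 to 4), against 9.47, 9.75, 9.64 and 9.93 in control ovaries. For ccl20 they had 6.21, 10.96, 4.47 and 10.30, against 4.70, 5.51, 6.98 and 6.34 in control ovaries. In both genes the high values were those of ovaries 2 and 4. Without these 2 ovaries the ligands no longer shared a direction. The differences were then -0.55 for ccl20, -0.25 for cxcl12a and -0.46 for il8, and the rest ran from 0.08 (cxcl11) to 4.07 (ccl1). Of the 11 ligands, 7 were higher in control testes than in control ovaries.

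The 5 members with the smallest p in ovaries shared an adjusted p of 0.434 by limma. The ligand ccl1 had 10.24, 6.15, 10.82 and 11.66 in heat-exposed ovaries, against 7.32, 6.22, 6.26 and 6.05 in control ovaries (3.26 ± 1.07). It was high in ovaries 1, 3 and 4 and at the control level in ovary 2, a pattern unlike that of the testis markers. The receptor gene il12rb2l had 8.14, 9.43, 7.72 and 8.57 in heat-exposed ovaries, all above the 7.39, 7.20, 7.24 and 7.55 of control ovaries (1.12 ± 0.38). The interleukin il13 had 5.66, 7.40, 6.86 and 5.59 in heat-exposed ovaries, all above the 5.51, 5.13, 4.83 and 4.92 of control ovaries (1.28 ± 0.45).

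The ligand tnfsf12, also called TWEAK, had 7.29, 8.57, 7.09 and 8.37 in heat-exposed ovaries, again above the 6.26, 6.78, 6.78 and 6.97 of control ovaries (1.13 ± 0.40). The ligand tnfb had 5.05, 4.74, 4.78 and 5.0 in heat-exposed ovaries, all below the 5.19, 5.48, 5.84 and 5.76 of control ovaries (-0.67 ± 0.26), with all values near the bottom of the range. Without heat-exposed ovaries 2 and 4 no member was called either, and ccl1 came nearest, at 4.07 ± 0.42 (limma adjusted p = 0.0804). Single testes of the same group also differed in ccl1 by wide gaps, of 4.29 in heat-exposed and 3.83 in control testes, as described below. In the fit without heat-exposed ovaries 2 and 4 the differences were 0.58 for il12rb2l, 0.5 for tnfsf12, 1.16 for il13 and -0.65 for tnfb. The genes il12rb2l, il13 and tnfsf12 were also higher in control testes than in control ovaries, and heat-exposed ovaries 2 and 4 carried testis transcripts. For il13, however, ovary 4 had the lowest value among heat-exposed ovaries (5.59), and ovary 3 had 6.86. The part of testis transcripts in the differences of il12rb2l, il13 and tnfsf12 was not tested. The 5 members were picked by their small p, and how many of all rows separate the groups as fully was not tested.

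How far each heat-exposed ovary stood toward the testis was read from the members that separate control testes from control ovaries, which do not use the heat-exposed arrays. Among the 29 members higher in control testes, the median shift from the control ovary mean was -0.06, 1.38, 0.07 and 1.53 in heat-exposed ovaries 1 to 4. Past the midpoint between control ovary and control testis were 4, 21, 7 and 24 of the 29, against 23 to 28 in single control testes and 1 to 5 in single control ovaries. The control arrays also chose these members and set the midpoint, so their own counts are not an independent yardstick. Among the 17 members higher in control ovaries, the median shift was 0.14, -1.53, -0.04 and -1.39, and 2, 12, 2 and 15 of the 17 lay past the midpoint. Over all testis-higher rows the shares past the midpoint were 10.7%, 75.1%, 14.7% and 76.9%, and over all ovary-higher rows 11.9%, 82.2%, 12.3% and 80.6%. The members moved in the same 2 ovaries as the testis and ovary transcripts at large.

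**Figure D4:**
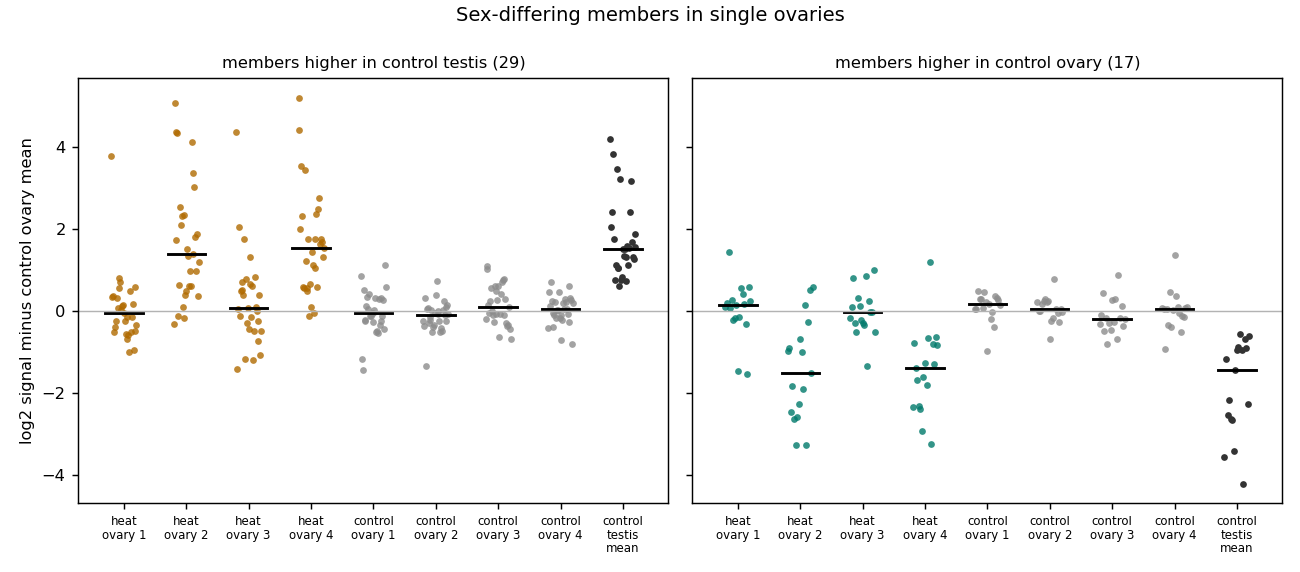
Log2 signal minus the control ovary mean (vertical axis) of the 29 members higher in control testis (left) and the 17 higher in control ovary (right), in heat-exposed ovaries 1 to 4, control ovaries 1 to 4 and the control testis mean (horizontal axis); each point is a gene and each line a median. Heat-exposed ovaries 2 and 4 lie near the testis mean, and 1 and 3 near the control ovaries.

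Single genes show this. The receptor tnfrsf25 had 4.8, 7.96, 4.94 and 7.69 in heat-exposed ovaries 1 to 4, against 4.65 to 5.26 in control ovaries, and il12bb, a subunit of interleukins 12 and 23, had 7.39, 9.85, 7.84 and 10.76, against 7.11 to 7.66 in control ovaries. The ovary-higher gene tnfaip8 had 10.99, 7.55, 11.06 and 7.58 in heat-exposed ovaries, against 10.31 to 11.70 in control ovaries. Heat-exposed ovary 2 also passed the testes in some genes: its cxcl12a (14.04), cxcr4b (13.99) and tnfaip8l3 (12.69) were above the highest testis values of 13.16, 12.88 and 10.48. Its pan-leukocyte markers averaged 10.80, and those of ovary 4 averaged 10.12, against 8.84 and 8.93 in heat-exposed ovaries 1 and 3, 9.40 to 10.14 in control testes and 8.75 to 9.45 in control ovaries. How much leukocyte content contributes to the members' shifts was not tested.

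The gonads of control fish differed in many members, with most chemokine ligands higher in testis and the receptor cxcr4a higher in ovary. Control testes and control ovaries differed in 46 of 93 members (49.5%), against 60.3% of all rows. Higher in testis were 29 members and lower 17, against 29.6% and 30.8% of all rows in these directions, and a second quantile normalization turned the members' split into 25 higher and 23 lower. The median difference was 0.31 over the members and 0.01 over all rows. Chemokine ligands were mostly higher in testis (7 higher and 1 lower of 11), TNF ligands 5 higher and 2 lower of 11, TNF receptors 3 and 2 of 7, interleukins 5 and 3 of 19, interleukin receptors 7 and 7 of 22 and TNF-induced proteins 2 and 1 of 9. Of 14 chemokine receptors, 1 was called.

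The chemokine ligand with the clearest separation was cxcl-c5c, with a lowest, median and highest value of 9.16, 10.79 and 11.74 in control testes, against 7.30, 5.45, 6.92 and 7.48 in control ovaries (3.82 ± 0.52, 14.2-fold; limma adjusted p = 1.04e-05). The groups lay more than 1 unit apart. The germ cell cue cxcl12a had 10.05, 11.60 and 12.43 in control testes, against 9.47, 9.75, 9.64 and 9.93 in control ovaries (1.75 ± 0.35, limma adjusted p = 4.00e-04). Its paralogue cxcl12b was also higher in testis (0.76 ± 0.31), at low signal. The ligands ccl25b (2.40 ± 0.49), ccl20 (2.05 ± 0.60), cxcl14 (1.12 ± 0.28) and ccl1 (4.19 ± 1.07) were higher in testis with overlapping groups, and il8 was lower (-0.95 ± 0.29).

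The receptors of Cxcl12 parted ways. The gene cxcr4a had 6.02, 7.33 and 8.90 in control testes, against 11.03, 11.19, 10.66 and 11.04 in control ovaries, and all ovaries lay above all testes (-3.55 ± 0.51, limma adjusted p = 1.78e-05). Its paralogue cxcr4b averaged 11 ± 0.67 in control testes and 10.53 ± 0.33 in control ovaries (SD) and was not called (limma adjusted p = 0.244).

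Among interleukins and their receptors the largest testis-higher differences were il12bb and il17ra. Control testes had 10.15, 10.69 and 11.45 for il12bb, against 7.66, 7.11, 7.32 and 7.22 in control ovaries (3.47 ± 0.22, limma adjusted p = 1.26e-09). For il17ra, a receptor chain for interleukin 17, they had 8.34, 8.87 and 9.82, against 5.61, 5.36, 6.23 and 5.77 in control ovaries (3.21 ± 0.28, limma adjusted p = 6.50e-08). Neither gene's groups overlapped.

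On the ovary side stood il1rapl2 (-3.42 ± 0.28) and il1rapl1a (-2.66 ± 0.43), counterparts of mammalian receptor-like proteins best known from neuronal synapses, together with il17a/f2 (-2.64 ± 0.22), il13ra2 (-2.55 ± 0.23), il15l (-2.18 ± 0.34), il21r (-1.46 ± 0.37) and il13ra1 (-1.18 ± 0.20). Except for il21r, control testes and control ovaries did not overlap in these genes. With 60.3% of all rows called, how many rows separate these groups as fully was not tested, here or for the other members described as not overlapping. For il1rapl2 control testes had 4.64, 5.22 and 6.26, against 9.20, 8.95, 8.43 and 8.34 in control ovaries. Smaller called differences, with testis higher, were those of il22 (1.34), il13 (1.05), il1b (0.82) and il17c (0.61) among the ligands and of il21rl (1.52), il23r (1.51), il4r (1.30), il12rb2l (1.05), il17ra2 (0.75) and il2rb (0.72) among the receptors. The macrophage ligand il34 (-0.96), the interleukin 7 receptor il7r (-0.57) and il6st (-0.89) were lower in testis. The testis values of il1rapl2, il17a/f2 and il13ra2 lay in the lowest 25% of rows. The means of il13, il1b and il17ra2 lay in the lowest 25% in both control testes and control ovaries.

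In the TNF family the receptors tnfrsf25 and tnfrsf21, both with death domains, were higher in testis, by 3.18 ± 0.28 and 2.40 ± 0.23. Control testes had 7.06, 8.15 and 8.88 for tnfrsf25, against 5.26, 5.18, 4.65 and 4.67 in control ovaries, with no overlap. The B-cell survival factor tnfsf13b, known as BAFF, was higher in testis too (1.88 ± 0.36), as were tnfsf10l (1.67 ± 0.29), tnfsf13 (1.54 ± 0.40), tnfsf10l3 (1.32 ± 0.27) and tnfsf12 (1.25 ± 0.39). Their relative tnfsf10l4 ran the other way (-2.28 ± 0.20), and tnfsf14 was lower in testis as well (-0.61). Further receptors were tnfrsf1a (1.53), higher in testis, and tnfrsf18 (-0.70) and tnfrsfa (-0.91), lower. Of the TNF-induced genes tnfaip2a (1.59) and tnfaip8l2a (1.12) were higher in testis, and tnfaip3 (-1.21) missed the threshold with an adjusted p of 0.0502 by limma. The largest ovary-higher difference of all members was tnfaip8, with 5.41, 6.49 and 8.47 in control testes, against 10.42, 10.86, 11.70 and 10.31 in control ovaries (-4.22 ± 0.47, limma adjusted p = 1.02e-06).

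Signal transduction genes were called in 47 of 60 (78.3%, against 60.3% of all rows), 20 higher and 27 lower in testis. The TRAF adaptors divided, with traf5 higher (5.40 ± 0.47) and traf6, which serves the interleukin 1 and 17 receptors, lower (-5.0 ± 0.21) in testis. So did the suppressors socs3a (3.07 ± 0.40) and socs3b (-2.87 ± 0.34). Of the 37 cytokine genes outside the rule 6 were higher and 6 lower, a called share of 32.4%.

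Many leukocyte and muscle markers were higher in control testes, though not all. Higher in control testis were 6 of 10 pan-leukocyte markers (1 lower), 6 of 10 macrophage markers, 5 of 9 neutrophil markers (1 lower), 8 of 17 lymphocyte markers (1 lower) and 9 of 12 trunk muscle markers. The lymphocyte markers called higher were foxp3b (4.2), gata3 (3.75), ighm (3.0), tbx21, foxp3a, rag2, ikzf1 and pax5. The lower one was zap70 (-2.12), and the rest, among them lck, cd8a, cd79b, rag1 and ighz, were not called. Of all rows 29.6% were higher and 30.8% lower. Summed pan-leukocyte markers were 9.40 to 10.14 in control testes and 8.75 to 9.45 in control ovaries. The part of leukocyte and muscle markers in the members' differences was not tested.

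Whether heat acted differently in the 2 gonads was tested as the heat effect in testis minus that in ovary. No member was called, against 1.21% of all rows. By limma, 14 of 93 members and 6696 of all 31475 rows had an unadjusted p under 0.05. The smallest p belonged to il12rb2l (-1.03 ± 0.34, limma adjusted p = 0.0924), il17ra (-1.43 ± 0.48, limma adjusted p = 0.099) and ccl1 (-5.10 ± 1.78, limma adjusted p = 0.109), followed by tnfaip1 (0.68 ± 0.26) and il1rapl2 (1.74 ± 0.69). All heat-exposed ovaries enter this contrast, including the 2 with testis transcripts.

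The ligand ccl1 fell into separate levels among adult fish of the same group, and so did ccr7; the gaps were examined after the values had been seen. Heat-exposed testes 1, 7 and 9 had ccl1 at 12.17, 12.32 and 12.66, and the other 7 lay between 6.73 and 7.88. In control testes 7 lay between 11.66 and 12.27, and testes 1, 2 and 8 had 7.19, 6.96 and 7.83. The gap within heat-exposed testes was 4.29 and within control testes 3.83; a gap as wide was present in 0.226% and 0.124% of all rows. Within heat-exposed ovaries the gap was 4.1, between 6.15 and 10.24, and a gap as wide was present in 1.95% of all rows. All heat-exposed trunks (11.67 to 12.81) and all control trunks (12 to 12.76) were at the upper level. The testis difference of -1.84 ± 1.0 was not called (limma adjusted p = 0.492).

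For ccr7, heat-exposed testes 2, 4 and 6 had 10.48, 11.04 and 10.54 and the other 7 lay between 5.76 and 7.81. In control testes 7 lay between 10.38 and 11.62, and testes 3, 9 and 10 had 7.14, 7.44 and 6.49. The gaps of 2.67 and 2.93 were matched in 1.27% and 0.445% of rows. At the upper level for both genes were 0 heat-exposed testes and 4 control testes (4, 5, 6 and 7). With 3 of 10 heat-exposed and 7 of 10 control testes at the upper level of each gene, these are the smallest overlaps possible. The mean testis difference in ccr7 was -1.73 ± 0.80 (limma adjusted p = 0.413). For ccl1, the testis nearest to its group mean of 8.81 (heat-exposed) or 10.65 (control) was at 7.88 or 11.66.

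**Figure D5:**
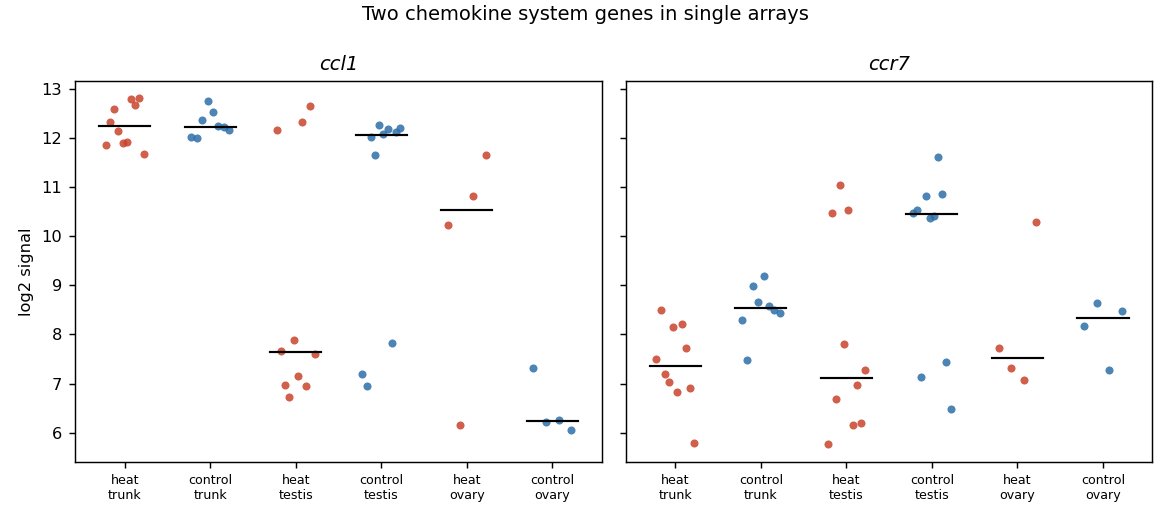
Log2 signal (vertical axis) of ccl1 (left) and ccr7 (right) in each array of the 6 groups (horizontal axis), red for heat and blue for control, with group medians as lines. In testes both genes fall into an upper and a lower level, with 3 of 10 heat-exposed and 7 of 10 control testes at the upper one.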

How the data were processed

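Expression was measured on 46 1-colour NimbleGen arrays labelled with Cy3, after whole-transcriptome amplification of total RNA, per the labels' protocols. The deposited values are log2 signals summarised to 1 value per row with RMA, per the submitters' processing notes; base 2 was inferred because values run between 3.76 and 15.89, and which RMA version, annotation and build were used is not given in the sources used here. RMA normalizes by quantiles, which can hide a shift of most genes. The series' design text speaks of 10 control juveniles, and 8 are analysed here. Groups followed the labels. Each comparison was fitted on its own arrays, and the difference of heat effects on the 28 adult arrays. The fits used lmFit and eBayes of limma 3.58.1 in R 4.3.3, with Benjamini-Hochberg adjustment over all 31475 rows, no filter and no block. All but the difference of heat effects were also run on simulated data, where both groups were given the reference group's spread. Heat-exposed ovaries varied more than that, with a median row SD of 0.69 against 0.4 in control ovaries. The number of arrays limits the precision. Members and gene lists were chosen with earlier results of these data known. Named were all members called in a heat comparison (the 5 with the smallest p where under 5 were called), the 10 called with the largest difference in each direction between testis and ovary, and a panel of 34 well-known members, 26 of them measured. Symbols were matched to RefSeq's gene table of the assembly GRCz12tu, for names only. Alternatives were a signal filter, array weights, another variance prior, 1 model of all arrays, repeated normalization, the replicate number as a block, marker covariates and leaving out arrays.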

Additional observations from a re-analysis of the deposited data

Results flagged for a closer look

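Values far from the rest of their group, by Dixon's criterion, were found in 22 of the 275 gene or list groups examined, and chance alone gives about 1 in 20. Control trunk 2 was high in il11b (7.75, the others 5.22 to 6.10), tnfrsf18 (7.90, the others 7.31 to 7.51), the NF-kB and cytokine signalling list (10.17), macrophage markers (11.78) and pan-leukocyte markers (12.04). Heat-exposed trunk 1 was high in oocyte markers (8.98). Among heat-exposed testes, testis 4 was high in il6r (7.07), testis 8 was low in tnfsf10 (7.12, the others 8.25 to 9.17) and high in cytokines named outside the rule (7.84), and testis 10 was low in gonadal somatic markers (9.04). Among control testes, testis 5 was high in il6r (6.0) and in pan-leukocyte markers (10.14), testis 4 in il12a (7.06), testis 10 in il2rga (6.78) and testis 7 in oocyte markers (10.18), and testis 9 was low in the NF-kB list (9.14). Heat-exposed ovary 2 was high in il2rga (7.60, the others 5.49 to 5.78). Control ovary 1 was high in ccl1 (7.32) and low in tnfsf10 (9.60), control ovary 3 was high in cxcr3.2 (6.45), and control ovary 4 was high in lymphocyte (7.23) and pan-leukocyte markers (9.45). The explanations of these values were not tested.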

How the results depend on the processing

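The 13 juvenile calls became 7 in 1 model of all 46 arrays, where 9.93% of all rows were called. They became 0 with oocyte markers as a covariate (0.715% of all rows), where heat and oocyte level can hardly be told apart. Leaving out single trunks gave 8 to 20. The 8 came without control trunk 4, control trunk 5 or heat-exposed trunk 3 (13.4%, 10.5% and 11.5% of all rows). The 20 came without control trunk 2 (14% of all rows). Without heat-exposed trunks 1, 2 and 10, which earlier results set apart, 10 remained of the 13, where 9.1% of all rows were called. In testis the 0 calls became 1 with a filter on low signal, tnfaip8l2a, where 0.413% of the rows kept were called. Leaving out single testes gave 0 to 1 (1 without heat-exposed testis 2, with 0.0763% of all rows called). In ovary the 0 calls became 11 in the model of all 46 arrays, where 15.5% of all rows were called. Between control testis and control ovary the 46 calls became 17 of 25 tested with the signal filter, against 76.5% of the rows kept. In heat-exposed adults they became 20, against 31% of all rows, and ccl1 reversed to -0.91. For the difference of heat effects the 0 calls became 3 in the model of all 46 arrays, where 7.97% of all rows were called. Leaving out single gonads gave 0 to 7. The 7 came without heat-exposed ovary 1, where 15.3% of all rows were called, and without heat-exposed ovary 3 there were 5, with 14% of all rows. Repeated quantile normalization moved the median of all rows between testis and ovary to -0.10. Replicate numbers only order separate fish: same-numbered arrays correlated at -0.08 to 0.15 in their deviations. With the replicate number as a block the calls were 11 in trunks (10.2% of all rows) and 34 between sexes (49.8% of all rows). That model gave 0 calls in testis, 0 in ovary and 0 for the difference of heat effects. Over single genes, 860 alternative values kept side and direction, 107 were no longer called, 5 became called and 1 reversed. The causes of these changes were not tested, beyond the fewer rows or arrays that a filter or an omission leaves. Members near the array's lowest signals were kept in the main fits, and calls among them rest on weak signal.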
